A study of Mus musculus with 26 samples.

Results

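Id2 encodes an inhibitor of DNA binding, a helix-loop-helix protein without the basic region that contacts DNA. Its levels were followed in endothelial cells that had met interferon gamma (IFNγ) from 3 kinds of source in mice. The annotation gave Id2 as the only gene symbol of 4 probe sets among the 65535 in the deposited table, and all 4 are described in each of the 26 arrays. A probe set is a group of array probes that read a stretch of a transcript. The brightest of the 4, 17280311, stood for the gene among 4386 genes tested. These cover part of the genome, so ranks, shares of all genes and nearest genes refer to the measured genes only. The gene was selected on these measurements because it was already known to be higher with IFNγ. Its changes against control are therefore given as a description, with no p-value.

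The array groups were all CD31+/CD146+ cells sorted from female mice. MCA313 tumours grew in mice aged 4-6 months that carried PIG, Pdgfb-Cre and IFNγ-del, in which the IFNγ receptor is restricted to the endothelium, where Pdgfb-Cre is active. The 3 groups had tumour cells without induction (0 h, n = 3 arrays), 24 h of induced IFNγ (n = 2) and 48 h of it (n = 2). The hosts of J558L tumours were Rag-/- mice aged 4-6 months, which have the receptor on all cells and no mature T or B cells. Here the tumour cells made an IFNγ-GFP fusion protein, and endothelium came from the tumour after 24 h (3 arrays) or at 0 h (2 arrays) and from the kidney of the tumour-bearing mice after 24 h (3 arrays) or at 0 h (3 arrays). Rag-/- mice aged 3-4 months were also the hosts of 16.113 tumours and had received tumour-specific T cells 120 h earlier, either IFNγ+/+ (competent, 3 arrays) or IFNγ-/- (deficient, 5 arrays). In this model both groups had received T cells, so the comparison is between T cells with and without IFNγ and not between treated and untreated tumours. The labels number the replicates without saying whether each is a separate animal, so errors and p-values measure the spread between these samples, which may be technical.

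Id proteins pair with E proteins such as E2A (gene Tcf3) and keep them from binding DNA at E-box motifs. Id genes are known targets of bone morphogenetic protein (BMP) signalling through SMAD factors, and Id2 itself is required for natural killer and other innate lymphoid cells and for some dendritic cells. In endothelium Id proteins are known for a role in vessel growth. IFNγ signals through JAK kinases, and many genes induced by interferons carry GAS or ISRE elements.

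The Id2 gene lies on the minus strand at chr12:25093799-25096092 of the GRCm38.p6 assembly and spans 2294 bases. The 250 bases before its RefSeq start are shown with those of Irf1, Socs3 and Rsad2, interferon- or cytokine-induced genes that were also measured, so that the elements known from such genes can be looked for in Id2. Sequences are from RefSeq, 5′ to 3′ on the gene's strand. The regions are chr12:25096093-25096342 (minus strand) for Id2, chr11:117969367-117969616 (minus strand) for Socs3, chr11:53769764-53770013 (plus strand, the first of 2 entries) for Irf1 and chr12:26456453-26456702 (minus strand) for Rsad2. Capitals mark matches on either strand to GAS (TTCNNNGAA), ISRE (2 copies of GAAA with 2 bases between them), the SMAD-binding GGCGCC or the CCAAT box.
Id2: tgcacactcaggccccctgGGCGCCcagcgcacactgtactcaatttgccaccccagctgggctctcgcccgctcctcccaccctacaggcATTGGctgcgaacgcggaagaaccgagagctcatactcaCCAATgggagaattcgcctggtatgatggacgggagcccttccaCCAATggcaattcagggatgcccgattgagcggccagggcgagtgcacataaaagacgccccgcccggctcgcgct
Socs3: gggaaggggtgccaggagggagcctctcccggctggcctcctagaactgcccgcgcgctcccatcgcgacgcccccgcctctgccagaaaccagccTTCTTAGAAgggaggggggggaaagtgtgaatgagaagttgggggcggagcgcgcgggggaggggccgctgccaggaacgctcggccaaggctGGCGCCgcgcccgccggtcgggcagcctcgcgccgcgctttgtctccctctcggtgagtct
Irf1: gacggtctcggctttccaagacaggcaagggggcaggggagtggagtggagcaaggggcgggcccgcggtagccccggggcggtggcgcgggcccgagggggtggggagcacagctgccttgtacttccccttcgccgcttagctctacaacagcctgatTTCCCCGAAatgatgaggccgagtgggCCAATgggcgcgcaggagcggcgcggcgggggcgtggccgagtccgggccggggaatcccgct
Rsad2: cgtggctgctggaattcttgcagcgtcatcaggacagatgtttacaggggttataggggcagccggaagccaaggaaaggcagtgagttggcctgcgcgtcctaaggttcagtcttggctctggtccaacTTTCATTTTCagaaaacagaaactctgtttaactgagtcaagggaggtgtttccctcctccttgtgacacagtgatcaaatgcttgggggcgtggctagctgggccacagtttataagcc

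The Id2 window held GGCGCC at -231 to -226 and 3 CCAAT boxes, 1 of them reversed, at -159 to -155, -120 to -116 and -76 to -72, counted back from the start. It had no match to GAS or ISRE, which says only that these letters are not in this window. Socs3 had a GAS match at -154 to -146 and GGCGCC at -61 to -56. Irf1 had a GAS match at -90 to -82 and a CCAAT box at -63 to -59. Rsad2 had an ISRE match at -120 to -111. None of these matches overlapped. Of 32851 mouse promoter windows of the same length, 7.02% held GAS, 2.98% ISRE, 9.59% GGCGCC and 33.8% CCAAT. A match describes letters and does not show a bound site.

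The 26 arrays appear to have been normalized in 4 sets, 1 for each tumour and tissue, from exact values that recurred within sets but almost never between them. Levels are log2 values and are compared only within a set. Array medians over all probe sets were 5.78 to 5.88 in MCA313, 6.42 to 6.46 in J558L tumour, 6.33 to 6.40 in J558L kidney and 5.62 to 5.79 in 16.113. Pecam1, which encodes the sorted marker CD31, had a level of 13.46 to 13.99 in every array.

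In MCA313 tumour endothelium Id2 was higher after 24 h and 48 h of IFNγ, about 4-fold at both times. The log2 level of probe set 17280311 was 7.97, 8.67 and 8.63 at 0 h, 10.36 and 10.44 at 24 h, and 10.75 and 10.25 at 48 h. Every induced array lay above every uninduced one, and the 24 h values lay inside the range of the 48 h values. Here and below, a lack of overlap is a description, since the share of all probe sets whose groups lay apart was not counted. The group means were 8.43 ± 0.40 at 0 h (SD, n = 3), 10.40 ± 0.05 at 24 h (n = 2) and 10.50 ± 0.35 at 48 h (n = 2). The log2 change against 0 h was 1.97 ± 0.26 at 24 h (SE of the fit, 95% interval 1.43 to 2.51), a 3.93-fold difference. At 48 h it was 2.07 ± 0.26 (95% interval 1.53 to 2.62), a 4.21-fold difference. Among the 4386 genes these changes ranked 21 and 22 from the top. Within the arrays the probe set stood at percentile 75.2 to 82.2 of all probe sets at 0 h, 93.4 to 94.1 at 24 h and 92.9 to 95.3 at 48 h.

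In J558L tumour endothelium, with the receptor on all cells, Id2 was also higher after induction, by 3.73-fold. The log2 level of 17280311 was 10.55, 10.57 and 10.29 after 24 h of IFNγ-GFP, against 8.65 and 8.50 at 0 h. The groups did not overlap. The means were 10.47 ± 0.16 at 24 h (SD, n = 3) and 8.57 ± 0.11 at 0 h (n = 2). The log2 change was 1.90 ± 0.26 (95% interval 1.36 to 2.44), which ranked 19 of 4386. The probe set stood at percentile 90.1 to 91.8 of the arrays at 24 h and 75.5 to 76.8 at 0 h.

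In kidney endothelium of the J558L-bearing mice Id2 was already among the brighter probe sets without induction and had a smaller fitted change, 1.47-fold. The log2 level of 17280311 was 11.45, 11.86 and 11.24 at 24 h, against 10.98, 11.18 and 10.73 at 0 h. The lowest 24 h array lay just above the highest 0 h array. The means were 11.51 ± 0.32 at 24 h and 10.96 ± 0.23 at 0 h (SD, n = 3 each). The log2 change was 0.55 ± 0.23 (95% interval 0.07 to 1.04), which ranked 384 of 4386. The probe set stood at percentile 96.2 to 98.1 of the arrays at 24 h and 93.7 to 95.7 at 0 h, so its standing at 0 h was above that in J558L tumour at 24 h. This last statement compares ranks within arrays of separately normalized sets and was not tested.

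With T cells as the source, Id2 was 1.55-fold higher. In 16.113 tumours the log2 level of 17280311 was 10.04, 9.72 and 10.31 with IFNγ-competent T cells, against 9.52, 8.94, 9.30, 9.50 and 9.72 with IFNγ-deficient T cells. The groups touched without overlapping, since the lowest competent array and the highest deficient array both round to 9.72. The means were 10.02 ± 0.29 (SD, n = 3) with competent and 9.40 ± 0.30 (n = 5) with deficient T cells. The log2 change was 0.63 ± 0.21 (95% interval 0.20 to 1.06), which ranked 274 of 4386. The probe set stood at percentile 92.9 to 95.4 of the arrays with competent and 87.7 to 92.8 with deficient T cells. With fewer cells of a type or less RNA per cell, a bulk level moves alike, and these cannot be told apart here.

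**Figure D1:**
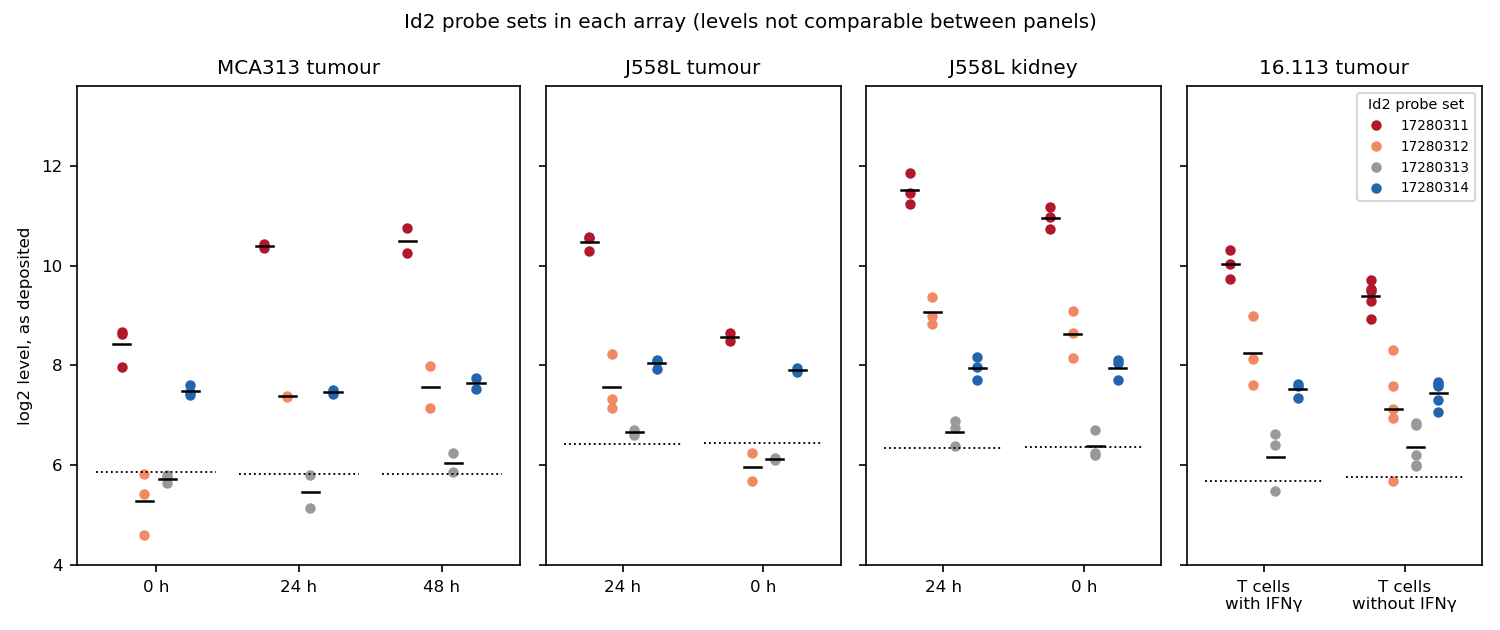
Deposited log2 level of the 4 Id2 probe sets in each of the 26 arrays (points) by group, with group means (bars) and the median of all probe sets (dotted lines), with 1 panel for each tumour and tissue. Probe set 17280311 lies above its controls in all 5 comparisons, most narrowly in 16.113, while 17280314 keeps to 7.07 to 8.17 throughout.

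The differences between these changes were tested across all 4386 genes with limma and Benjamini-Hochberg adjustment, and none passed for Id2. The changes that enter them were known when the gene was chosen. The p-values of these differences, here and below, are therefore a description and not an independent test. The 48 h minus 24 h log2 difference in MCA313 was 0.10 ± 0.28 (95% interval -0.49 to 0.69, adjusted p = 0.9995), where 0.0684% of genes passed. The MCA313 change at 24 h exceeded that in J558L tumour by 0.07 ± 0.37 (95% interval -0.69 to 0.84, adjusted p = 0.999). No gene passed that test in limma (0%), and 131 had an unadjusted p under 0.05. Both intervals allow differences of over 1.5-fold in at least 1 direction, so equal responses were not shown. MCA313 and J558L also differ in tumour, in host genotype, in which host cells carry the receptor and in the GFP fusion of IFNγ. These cannot be told apart.

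The J558L tumour change exceeded the kidney change by 1.34 ± 0.35 on the log2 scale (95% interval 0.62 to 2.07), which is 2.54-fold, with an adjusted p of 0.231. Of all genes 0.0228% passed here, and 210 had an unadjusted p under 0.05. The test treated tumour and kidney arrays as independent, although some may come from the same mice. Over the 9 alternatives the difference was 0.72 to 1.41. It passed the threshold with limma's array weights (1.41, adjusted p = 0.0392) and was smallest with averaged probe sets (0.72, adjusted p = 0.374). The 16.113 change minus that of J558L tumour was -1.27 ± 0.33 (95% interval -1.96 to -0.58, adjusted p = 0.287), and -0.64 with averaged probe sets (adjusted p = 0.494). No gene passed this test in limma (0%), and 275 had an unadjusted p under 0.05. Tumour, mouse age, IFNγ source and exposure time all differ between those 2 models and cannot be told apart.

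The 4 probe sets gave different values. Probe set 17280312 was higher after induction in MCA313 and J558L tumours, as was 17280311. It read 5.42, 4.60 and 5.83 at 0 h in MCA313, 7.38 and 7.38 at 24 h, and 8.0 and 7.15 at 48 h. In J558L tumour it read 8.23, 7.33 and 7.14 at 24 h, against 6.24 and 5.69 at 0 h. Groups did not overlap in these 3 comparisons, a description for which the share over all probe sets was not counted. All 0 h arrays lay below their array median, so the sizes of the log2 changes, 2.10 ± 0.57, 2.29 ± 0.57 and 1.60 ± 0.57, are uncertain.

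In kidney 17280312 read 9.0, 9.36 and 8.83 at 24 h, against 9.09, 8.64 and 8.15 at 0 h. In 16.113 it read 7.61, 8.13 and 8.99 with competent T cells, against 7.59, 5.68, 7.13, 8.31 and 6.94 with deficient T cells. The groups overlapped in both, with log2 changes of 0.44 ± 0.51 and 1.11 ± 0.46. Here the second probe set does not separate the groups that 17280311 separated narrowly.

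Probe set 17280313 was dim, between 0.72 below and 1.13 above the array median on the log2 scale. It read 5.80, 5.63 and 5.77 at 0 h in MCA313, 5.14 and 5.80 at 24 h, and 6.24 and 5.86 at 48 h. In J558L tumour it read 6.71, 6.60 and 6.67 at 24 h, against 6.15 and 6.11 at 0 h. Its groups were apart in MCA313 at 48 h and in J558L tumour and overlapped in the other 3 comparisons. In kidney it read 6.89, 6.38 and 6.74 at 24 h, against 6.70, 6.20 and 6.24 at 0 h. In 16.113 it read 6.62, 5.49 and 6.41 with competent T cells, against 6.01, 6.81, 6.20, 5.98 and 6.85 with deficient T cells. Its log2 changes were -0.26 ± 0.34, 0.32 ± 0.34, 0.53 ± 0.34, 0.28 ± 0.30 and -0.19 ± 0.27 in MCA313 at 24 h and 48 h, J558L tumour, kidney and 16.113.

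Probe set 17280314 was brighter, at 7.07 to 8.17 over all arrays, and its groups overlapped in all 5 comparisons. Its log2 changes were -0.03 ± 0.23, 0.15 ± 0.23, 0.13 ± 0.23, -0.01 ± 0.20 and 0.07 ± 0.18 in the same order. The sources used here do not say where each probe set lies in the Id2 transcript. Averaging all 4 lowered the Id2 log2 change to 0.94 and 1.21 in MCA313 at 24 h and 48 h, 1.04 in J558L tumour, 0.32 in kidney and 0.40 in 16.113.

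**Figure D2:**
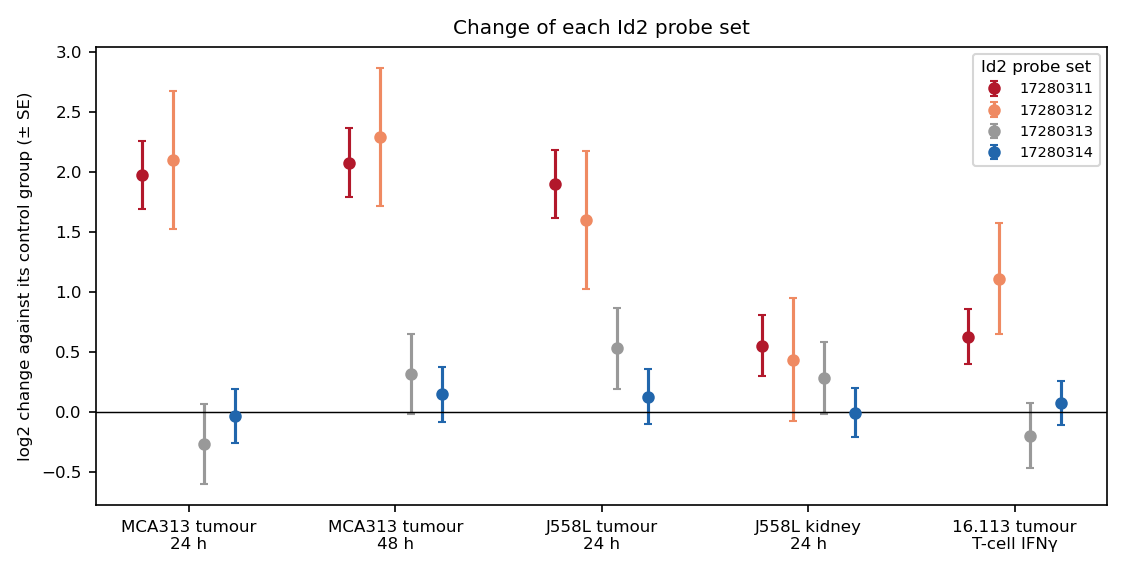
Log2 change against the control group (y axis, ± SE) of each Id2 probe set in the 5 comparisons (x axis). Probe sets 17280311 and 17280312 are near 2 in both MCA313 times and between 1.60 and 1.90 in J558L tumour, whereas 17280314 stays between -0.03 and 0.15.

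Of the leukocyte and lymphoid markers measured, 1 of each list, Fcgr4 and Ctla4, passed in MCA313 after induction, where the share of all genes past the test (adjusted p under 0.05) was 0.684% after 24 h (0.547% higher and 0.137% lower) and 1.37% after 48 h (0.912% higher and 0.456% lower). Of 13 leukocyte markers 8 were measured, and their summed log2 level was 9.94 to 10.55 at 0 h, 10.76 to 11.16 at 24 h and 10.70 to 11.15 at 48 h in MCA313. Of the 8, 2 lay below the array median in every 0 h array and 0 did so at 24 h or 48 h. Their median change was 0.40 at 24 h (7 of the 8 above 0) and 0.24 at 48 h (6 above 0). Fcgr4, an Fc receptor of myeloid cells, rose by 3.67 ± 0.73 (adjusted p = 0.0161) and 3.33 ± 0.73 (adjusted p = 0.0249). Its mean level at 0 h, 5.33, lay below the array medians, so these sizes are uncertain. Of 16 T, NK and innate lymphoid markers 8 were measured, and their sum was 9.33 to 9.53 at 0 h, 10.15 to 10.42 at 24 h and 10.21 to 11.2 at 48 h. The median change of the 8 was 0.081 at 24 h (6 above 0) and -0.15 at 48 h (2 above 0). Of the 8, 2, 1 and 3 lay below the array median in every array at 0 h, 24 h and 48 h. Ctla4, a T cell checkpoint receptor, rose by 3.73 ± 0.58 (adjusted p = 0.00113) and 4.71 ± 0.58 (adjusted p = 9.5e-05). Its mean level was 5.34 at 0 h, below the array medians, 9.06 at 24 h and 10.05 at 48 h. The sizes of its changes are therefore uncertain, and the rise of the lymphoid sum lies mostly in Ctla4. The other 7 did not pass. Among them, the NK and T cell genes Prf1, Xcl1 and Cd7 had mean levels of 5.49, 5.55 and 5.23 at 0 h, below the array medians, with changes of 0.11, 0.22 and 0.05 at 24 h and -0.01, -0.15 and -0.45 at 48 h. Cd247, also among the 7, had mean levels of 6.83 at 0 h, 7.62 at 24 h and 7.45 at 48 h. The rest of the 7, Cd28, Icos and Cd244a, had means of 6.88, 6.15 and 7.33 at 0 h, above the array medians. Their means were 6.65, 6.06 and 7.37 at 24 h and 6.72, 5.86 and 7.02 at 48 h.

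In J558L tumour and kidney these sums, which weigh the brightest markers most, overlapped between groups. Of the 8 leukocyte markers, 5, 6 and 3 had changes above 0 in J558L tumour, kidney and 16.113, with medians of 0.16, 0.35 and -0.16. Leukocyte sums were 11.06 to 11.63 at 24 h and 11.16 to 11.22 at 0 h in J558L tumour, 11.17 to 11.38 and 10.70 to 11.35 in kidney, and 11.11 to 11.95 with competent and 11.12 to 12.59 with deficient T cells in 16.113. Lymphoid sums were 9.82 to 10.09 at 24 h and 9.93 to 10.05 at 0 h in J558L tumour and 10.28 to 10.52 and 10.06 to 10.64 in kidney. In 16.113 they were higher with competent T cells, at 9.90 to 10.28, against 9.46 to 9.87 with deficient T cells, and did not overlap. Prf1 had the highest fitted change of the 8 lymphoid markers in 16.113 (1.10, with 6 of the 8 above 0). It also had the highest in kidney (1.04, with 5 of the 8 above 0). No single leukocyte or lymphoid marker passed the test in J558L tumour (0.547% of all genes passed, 0.365% higher and 0.182% lower), kidney (3.17%, with 1.64% higher and 1.53% lower) or 16.113 (7.36%, with 2.55% higher and 4.81% lower). Of 13 endothelial markers 5 were measured. Their summed level in MCA313 was 15.24 to 15.28 at 0 h, 15.20 at 24 h and 15.12 to 15.15 at 48 h. In J558L tumour it was 15.38 to 15.44 at 24 h and 15.46 to 15.49 at 0 h, and in kidney 15.36 to 15.42 and 15.48 to 15.58. These sums were slightly lower after induction, without overlap. In 16.113 they overlapped, at 14.61 to 14.76 with competent and 14.65 to 14.81 with deficient T cells. Of 10 perivascular markers 5 were measured and 4 were kept by the filter on low values. The changes of these 4 were all above 0 in J558L tumour (median 0.55). Above 0 were 3, 1, 3 and 1 of them in MCA313 at 24 h and 48 h, kidney and 16.113. No endothelial or perivascular marker passed in any of the 5 comparisons. Of 3 measured plasma cell markers Sdc1 was lower in 16.113 (-0.94 ± 0.27, adjusted p = 0.0392), but only 7 of its 12 probe sets were lower. No kidney epithelial marker was measured. The part of these cells in the Id2 changes was not tested.

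The other Id and E protein genes gave 1 call, for the partner Tcf3. The table covers part of the genome, and of 6 such genes besides Id2 only Id4 and Tcf3 were measured. Id1, Id3, Tcf4 and Tcf12 were not analysed here. In 16.113 the log2 level of Tcf3 was 11.09, 10.59 and 10.40 with competent T cells, against 11.48, 11.60, 11.58, 11.30 and 11.35 with deficient T cells. The groups did not overlap, and 16 of 17 Tcf3 probe sets were lower. The change was -0.77 ± 0.16 (adjusted p = 0.00557), opposite in sign to that of Id2, where 4.81% of all genes were lower. The call was lost with array weights and in a fit of the 16.113 arrays alone.

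Tcf3 did not pass elsewhere, although its fitted changes were also below 0. They were -0.58 ± 0.20 and -0.56 ± 0.20 in MCA313 at 24 h and 48 h (adjusted p = 0.225 and 0.214), -0.20 ± 0.20 in J558L tumour (adjusted p = 0.966) and -0.62 ± 0.18 in kidney (adjusted p = 0.0708). Id4, another Id family inhibitor, had fitted changes of 0.45 ± 0.32, 0.23 ± 0.32, 0.70 ± 0.32, 0.41 ± 0.28 and -0.07 ± 0.25 in MCA313 at 24 h and 48 h, J558L tumour, kidney and 16.113. None of its tests passed.

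Of the measured BMP and TGF-beta genes, whose pathways act upstream of Id genes, none passed as higher in any of the 5 comparisons. Of 41 listed genes 8 were measured: the receptor Bmpr2, the ligands Tgfb2, Tgfb3, Bmp6, Inhba and Inhbb, the BMP antagonist Nog and the ubiquitin ligase Smurf2. None passed in MCA313, J558L tumour or 16.113. At an unadjusted p under 0.05 limma gave 1 of these 8 at each MCA313 time, 0 in J558L tumour and 2 in 16.113. Tgfb2 had the largest change in MCA313, -0.92 ± 0.28 at 24 h (adjusted p = 0.139).

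In kidney 2 of the 8 were lower, beside 1.53% of all genes. Bmp6, a BMP ligand, had log2 levels of 11.07, 10.75 and 10.48 at 24 h, against 11.92, 12.30 and 12.32 at 0 h. The groups were well apart, with a change of -1.41 ± 0.31 (adjusted p = 0.0143). Tgfb3, a TGF-beta ligand, had 8.21, 8.38 and 7.30 at 24 h, against 9.75, 9.22 and 9.19 at 0 h, a change of -1.43 ± 0.38 (adjusted p = 0.0439). The Bmp6 call was lost without kidney 0 h replicate 2, 0 h replicate 3 or 24 h replicate 3 (adjusted p up to 0.0792), and the Tgfb3 call without any 1 of the 6 kidney arrays (up to 0.232). The median change of the 8 genes was -0.14, -0.10, -0.0011, -0.076 and -0.075 in MCA313 at 24 h and 48 h, J558L tumour, kidney and 16.113.

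Of 27 listed genes for other proteins reported to bind Id proteins, 11 were measured and 10 were kept by the filter on low values. The 10 include myogenic and Hey factors and the ETS factors Elk3 and Elk4, and 1 passed. Elk3, a repressor of the ternary complex family, was lower in kidney (log2 change -0.56 ± 0.15, adjusted p = 0.0406), a call kept only without 24 h replicate 3 among the 6 kidney arrays left out in turn (adjusted p up to 0.183). In the other 4 comparisons none passed, and limma gave 0, 1, 1 and 1 of the 10 at an unadjusted p under 0.05 in MCA313 at 24 h and 48 h, J558L tumour and 16.113. The largest changes there were those of Myog in MCA313 (0.55 ± 0.35 and 0.60 ± 0.35), Elk3 in J558L tumour (-0.40 ± 0.16) and Myf6 in 16.113 (0.49 ± 0.28).

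Of 22 listed IFNγ signalling and IRF genes 12 were measured, and 2, 3, 2, 0 and 4 were called higher in MCA313 at 24 h and 48 h, J558L tumour, kidney and 16.113, with none lower, beside 0.547%, 0.912%, 0.365%, 1.64% and 2.55% of all genes called higher. In kidney limma gave 2 at an unadjusted p under 0.05. The medians of the 12 were 0.46, 0.50, 0.36, 0.33 and 0.27, while the medians of all genes lay between -0.032 and 0.011. Irf4, a lymphoid and myeloid transcription factor, rose by 3.39 ± 0.52, 3.04 ± 0.52, 2.90 ± 0.52 and 2.51 ± 0.42 in the 4 tumour comparisons (adjusted p = 0.00111, 0.00367, 0.00956 and 0.00111). Its control means lay below the array medians, so these sizes are uncertain. The Irf4 call was lost at 48 h without 48 h replicate 1, in J558L tumour without either 0 h array, and in a fit of the MCA313 arrays alone.

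Socs3, a feedback inhibitor of JAK-STAT signalling with the GAS match above, was called in MCA313 and J558L tumour, where the Id2 changes were near 2. Its log2 level was 8.25, 8.68 and 8.93 at 0 h in MCA313, 10.35 and 10.14 at 24 h, and 9.89 and 9.68 at 48 h. In J558L tumour it was 11.03, 11.10 and 10.84 at 24 h, against 9.74 and 9.74 at 0 h. These groups were apart, with changes of 1.63 ± 0.19 (adjusted p = 7.55e-05), 1.17 ± 0.19 (adjusted p = 0.00243) and 1.25 ± 0.19 (adjusted p = 0.00283). In kidney and 16.113 the changes were 0.37 ± 0.17 and 0.18 ± 0.16 and did not pass. Only 4 of its 6 probe sets were higher in MCA313, and all 3 calls were lost when probe sets were averaged or only the set compared was fitted. They were also lost without 48 h replicate 1 at 48 h and without 0 h replicate 1 in J558L tumour.

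Irf1, an early IFNγ target with a GAS match, was called in 16.113, where Id2 was 1.55-fold higher. Its log2 level there was 12.44, 12.35 and 11.99 with competent T cells, against 10.26, 10.90, 10.31, 10.31 and 10.37 with deficient T cells. The groups lay far apart, with a change of 1.83 ± 0.20 (adjusted p = 8.03e-06). Its fitted change was 1.02 ± 0.24 and 1.06 ± 0.24 in MCA313 at 24 h and 48 h (adjusted p = 0.0527 and 0.0336), 0.46 ± 0.24 in J558L tumour and 0.42 ± 0.22 in kidney, the last 2 not past the test. The 48 h call was lost without 0 h replicate 1 and without either 48 h array. Stat2 and Stat5b, which encode signal transducers, were the other 2 called in 16.113, with changes of 0.72 ± 0.18 and 0.92 ± 0.14. The Stat2 call was lost without competent replicate 3.

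Of 9 listed interferon-inducible GTPases, which act against pathogens inside cells, 4 were measured (Irgm1, Irgm2, Igtp and Gm12250). All 4 were higher in 16.113, against 1 (Irgm1) at each MCA313 time, 0 in J558L tumour and 3 (all but Irgm2) in kidney. The shares of all genes called higher were 2.55% in 16.113, 0.547% and 0.912% in MCA313 at 24 h and 48 h, 0.365% in J558L tumour and 1.64% in kidney. All 4 had an unadjusted p under 0.05 in limma in each of the 5 comparisons. With averaged probe sets 3 and 4 were called in MCA313 at 24 h and 48 h and 1 in J558L tumour. Their median changes were 1.43, 1.32, 0.96, 1.19 and 2.5 in MCA313 at 24 h and 48 h, J558L tumour, kidney and 16.113, so their median was above the Id2 change in kidney and 16.113 and below it in the other 3. The test of the 16.113 change minus that of J558L tumour, which was negative for Id2, gave positive differences of 1.04 to 1.99 for the 4 GTPases, none past the threshold. The 16.113 calls held in each of the 8 fits that left out an array of that tumour. The MCA313 calls were lost without 0 h replicate 1 or either induced array. In kidney the Irgm1 call was lost without any 1 of the 6 arrays, the Igtp call without any but 0 h replicate 1, and the Gm12250 call without 0 h replicate 2.

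No measured gene with its start within 1.5 Mb of that of Id2 on chromosome 12 passed the test in MCA313 or J558L tumour. Of 48 RefSeq genes whose start lies within 1.5 Mb of that of Id2, 13 were measured: 9030624G23Rik, Taf1b, Grhl1, Klf11, Cys1, Rrm2, Mboat2, Kidins220, Gm17746, 4930480M12Rik, Rnf144a, Rsad2 and Cmpk2. In MCA313 at 24 h and 48 h and in J558L tumour limma gave 3, 0 and 3 at an unadjusted p under 0.05. The nearest by its start, Gm17746 at 0.035 Mb, had fitted log2 changes of 0.12, 0.16, 0.17, 0.09 and 0.30 in MCA313 at 24 h and 48 h, J558L tumour, kidney and 16.113, none past the test. Kidins220, a membrane scaffold of neurotrophin signalling at -0.119 Mb, had changes of 0.04, 0.08, 0.11 and 0.01 in the first 4 of these, none past the test. The median changes of the 13 were 0.12, 0.16, 0.11, -0.052 and 0.30.

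In kidney 1 neighbour was higher and 1 lower, and in 16.113 there were 3 higher and 1 lower. Of all genes 1.64% were higher and 1.53% lower in kidney, and 2.55% higher and 4.81% lower in 16.113. Cmpk2, an interferon-induced nucleotide kinase, rose by 0.81 ± 0.19 in kidney (adjusted p = 0.0260) and by 0.58 ± 0.17 in 16.113 (adjusted p = 0.0463). Rsad2, which makes the antiviral protein viperin and had the ISRE match, rose by 0.44 ± 0.13 in 16.113 (adjusted p = 0.0486), as did Kidins220 by 0.65 ± 0.20 (adjusted p = 0.0486). Rrm2, a subunit of ribonucleotide reductase, was lower in kidney (-1.87 ± 0.45, adjusted p = 0.0262) and in 16.113 (-1.94 ± 0.40, adjusted p = 0.00544). In kidney only 6 of its 14 probe sets were lower, and its 24 h mean lay below the array medians. The Rrm2 call in 16.113 held without each array in turn. In 16.113 the call of Cmpk2 held only without competent replicate 2, deficient replicate 2 or deficient replicate 5, that of Rsad2 only without deficient replicate 2, and that of Kidins220 only without deficient replicate 1 or 2. In kidney the call of Cmpk2 held only without 0 h replicate 3 and that of Rrm2 only without 0 h replicate 3 or 24 h replicate 1.

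**Figure D3:**
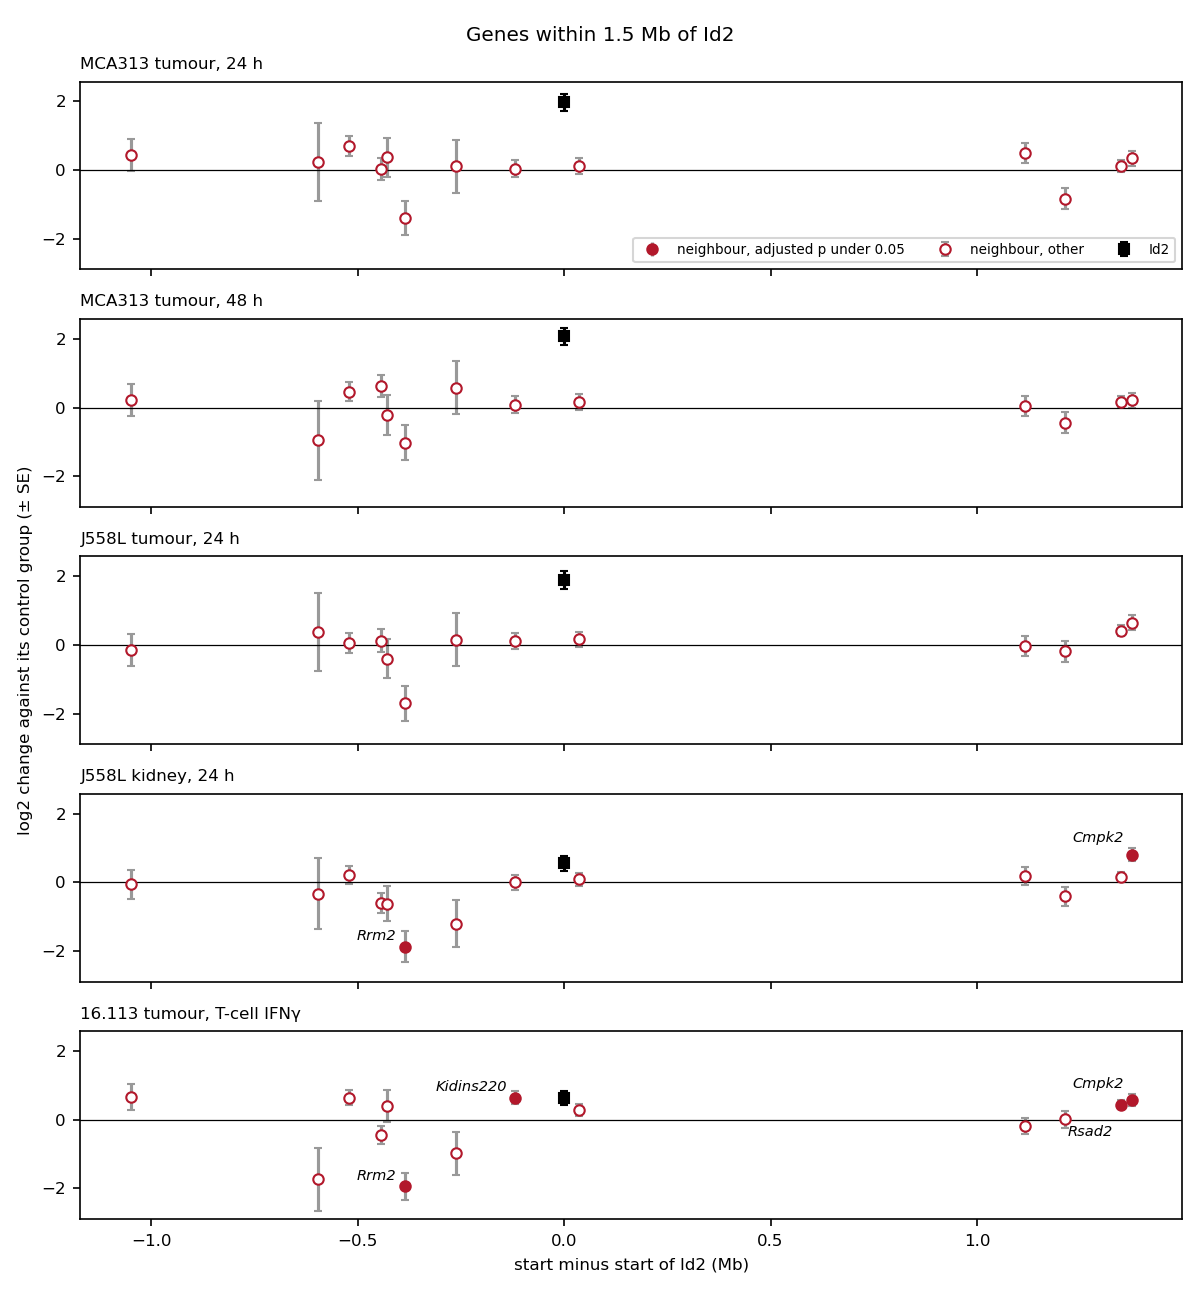
Log2 change (y axis, ± SE) of Id2 (square) and of the 13 measured genes within 1.5 Mb (circles, filled where the adjusted p is under 0.05), by the distance of their start from that of Id2 in Mb, for each of the 5 comparisons. In MCA313 and J558L tumour no neighbour is filled and Id2 stands above all of them.

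The genes whose values were nearest to those of Id2 were found by the mean absolute difference in log2 level over the 26 arrays, after each gene was centred within each of the 4 sets on the mean of its group means. The arrays of a set share their normalization and, within a comparison, the control arrays. The median difference over all genes was 0.683. The 8 nearest were Sec61g (0.305), a subunit of the translocon of the endoplasmic reticulum, Socs3 (0.309), Slamf8 (0.313), a receptor of the SLAM family in myeloid cells, Gm2427 (0.321), Atxn7l1 (0.329), Krt27 (0.357), a keratin, Mndal (0.361), of the interferon-inducible p200 family, and Sphk1 (0.362), a kinase that makes sphingosine 1-phosphate. The second Id2 probe set, 17280312, lay at 0.365, while 17280313 and 17280314 lay at 0.608 and 0.618.

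Slamf8 had log2 changes of 2.28 ± 0.36, 2.07 ± 0.36, 2.14 ± 0.36, 0.99 ± 0.32 and 0.42 ± 0.29 in MCA313 at 24 h and 48 h, J558L tumour, kidney and 16.113. Sphk1 had changes of 2.0 ± 0.28, 1.78 ± 0.28, 0.87 ± 0.28, 0.51 ± 0.25 and 0.32 ± 0.22 in the same order. Atxn7l1 had changes of 1.14 ± 0.23, 1.18 ± 0.23, 1.11 ± 0.23, 0.0030 ± 0.20 and 0.87 ± 0.18. Mndal had the highest of its 5 changes, 1.46 ± 0.16, in 16.113, where that of Id2 was 0.63. Sec61g, the nearest, had changes of 1.65 ± 0.23, 1.78 ± 0.23, 0.94 ± 0.23, 1.13 ± 0.20 and 0.43 ± 0.18 in the same order. Its fitted change was thus higher in kidney than in J558L tumour, unlike that of Id2. Krt27 also had the higher value in kidney, 0.60 ± 0.26 against 0.28 ± 0.29 in J558L tumour. Gm2427 had 1.28 ± 0.27 in kidney and 1.37 ± 0.30 in J558L tumour. Only 1 of the 8 stayed among the nearest when probe sets were averaged.

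**Figure D4:**
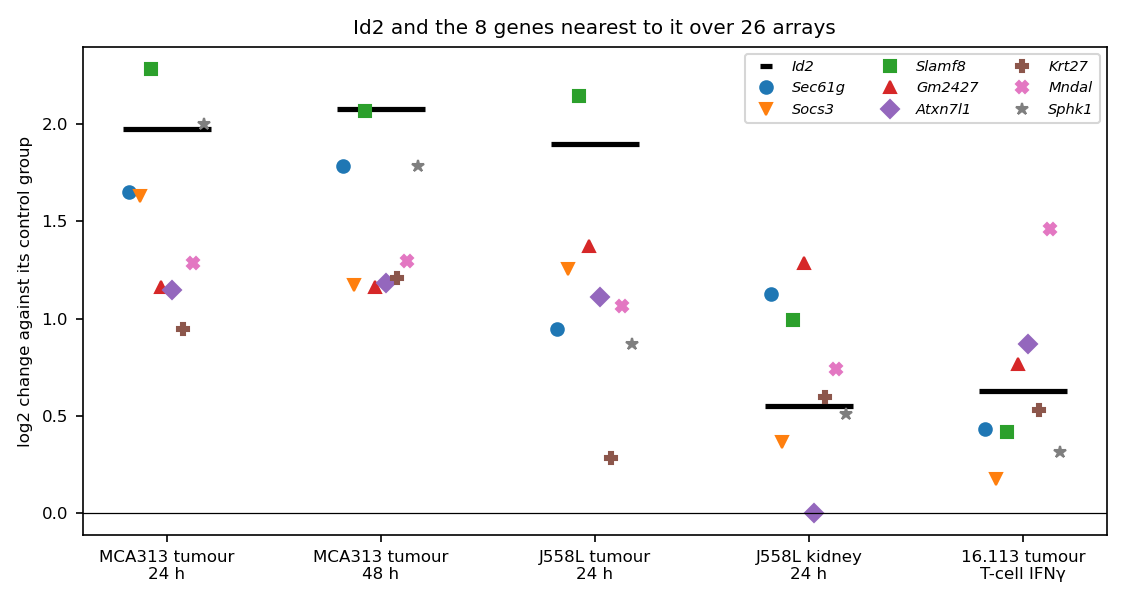
Log2 change against the control group (y axis) of Id2 (black bars) and of the 8 genes nearest to it over 26 arrays (symbols) in the 5 comparisons (x axis). Slamf8 lies within 0.5 of Id2 in every comparison, whereas Mndal lies below Id2 in the MCA313 and J558L tumours and above it in 16.113.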

How the data were processed

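Per the labels' protocols, picogram amounts of total RNA from sorted mouse endothelium were amplified and labelled (Affymetrix WT Pico kit). The authors deposited log2 expression values per probe set. Per the submitters' processing notes these came from Affymetrix Expression Console and limma; versions and the normalization method are not given in the sources used here. All value columns matched a sample.

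Probe sets were named by the array's annotation, with old symbols updated through RefSeq (GRCm38.p6). Those with several symbols (766) or none (10912) were left out. Each of 5109 genes was represented by its brightest probe set (mean over all 26 arrays). A gene was kept if it exceeded the array's 50th percentile in at least 2 arrays, which left 4386. The linear model had 1 mean for each of 9 groups over all arrays, in limma 3.58.1 in R 4.3.3, with two-sided moderated tests and Benjamini-Hochberg adjustment over 4386 genes at 0.05. Intervals cover 95%. The fit was tested on simulated data.

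Id2, the gene lists and the marker lists were chosen with earlier results of these data known. Named are Id2, the measured Id and E protein genes, up to 4 members of each other list past the test (or up to 2 with the largest change), genes with a start within 1.5 Mb of Id2, the 8 genes nearest to it and Pecam1. Fcgr4, Ctla4 and Sdc1 are the marker genes past the test, and the remaining measured lymphoid markers are named beside them. Alternatives were other filters, quantile normalization, median centring, averaged probe sets, another variance prior, array weights, a block for replicate numbers (statmod 1.5.0), fits of the sets compared and each array left out. Precision is limited by the number of arrays.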

Additional observations from a re-analysis of the deposited data

How the results depend on the processing

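All 5 Id2 changes stayed above 0 under 9 alternatives and with each array left out. Averaging the probe sets moved them to 0.94 and 1.21 in MCA313 at 24 h and 48 h, 1.04 in J558L tumour, 0.32 in kidney and 0.40 in 16.113. The other alternatives moved no change by more than the spread between replicates. With 1 array left out, the changes were 1.75 to 2.10 and 1.82 to 2.32 in MCA313 at 24 h and 48 h, 1.82 to 1.99 in J558L tumour, 0.38 to 0.69 in kidney and 0.49 to 0.78 in 16.113. The J558L tumour minus kidney difference passed with array weights (1.41, adjusted p = 0.0392), was 0.72 with averaged probe sets and was 1.21 to 1.52 with an array left out, none past the threshold. The 16.113 minus J558L tumour difference was -0.64 with averaged probe sets and -1.41 to -1.12 with an array left out. The MCA313 minus J558L tumour difference turned negative with averaged probe sets (-0.0966), without MCA313 0 h replicate 1 (-0.15), without J558L tumour 0 h replicate 1 (-0.000155) and without J558L tumour 24 h replicate 3 (-0.0175), within a range of -0.15 to 0.20. The 48 h minus 24 h difference was -0.15 to 0.35, negative without MCA313 48 h replicate 1 (-0.15). The causes were not tested. Fits of only the sets compared also ended the calls of Irf1 at 48 h and Irgm1 in MCA313, of Elk3, Tgfb3, Rrm2 and Cmpk2 in kidney, and of Stat2, Stat5b, Rrm2, Kidins220, Rsad2 and Cmpk2 in 16.113. Averaging ended those of Elk3 in kidney, Rrm2 in kidney and 16.113 and Kidins220 in 16.113, centring that of Elk3, and array weights those of Irgm1 at 48 h in MCA313 and of Stat2, Rrm2, Kidins220, Rsad2 and Cmpk2 in 16.113. Irgm1 at 48 h, Rsad2 and Cmpk2 were also lost with no filter on low values and with quantile normalization, and Kidins220 with no filter.

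Counts of called genes over the whole table moved more. The counts were 30, 60, 24, 139 and 323 in MCA313 at 24 h and 48 h, J558L tumour, kidney and 16.113. The alternatives gave 1 to 140, 4 to 174, 18 to 127, 67 to 277 and 34 to 444, with the fewest calls in fits of the sets compared and the most with averaged probe sets, except in J558L tumour, where array weights gave the most. With 1 array left out they were 12 to 49, 14 to 79, 3 to 18, 69 to 103 and 197 to 565. Within each tumour and tissue the deviations of same-numbered arrays correlated at -0.144 to 0.113. In groups of 2 arrays the deviations mirror each other, so these values cannot decide whether the numbers pair the samples. Same-numbered J558L tumour and kidney arrays were not compared, so whether they share a mouse is not known. The replicate block was formed within each tumour and tissue only. With the replicate block, which had a consensus correlation of -0.068, the Id2 changes were 1.97, 2.07, 1.89, 0.55 and 0.62, and the 4 Id2 differences kept their side of the threshold. The block ended the calls of Irgm1 in MCA313 at both times, of Elk3, Tgfb3 and Irgm1 in kidney, and of Kidins220, Rsad2 and Cmpk2 in 16.113.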
